A study of Rattus norvegicus with 6 samples.

Results

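Tissue macrophage markers were followed in the ovaries of rats that had been overfed or kept lean before mating. The 10 genes were Mrc1, Clec10a, Cd163, Ms4a6a, C1qa, C1qb, Csf1r, Adgre1, Cd68 and Ptprc. They were taken as every probe set that the platform annotation assigns to 1 of these genes and to no other gene, which gave 12 of 31042 tested probe sets and 10 of 14217 named genes. Overfed females received liquid diet through a feeding tube (total enteral nutrition) at 220 kcal for each kg of metabolic weight over 28 days, and lean females received 155 kcal in the same way. Both groups were then mated with lean males, and whole ovaries were frozen 4.5 days after mating. Total RNA was hybridized to Affymetrix arrays as 3 overfed and 3 lean pools, 1 pool per array. The labels used here give neither the number of animals in a pool nor their strain or age, so the p-values measure the spread between pools.

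Macrophages are the resident phagocytes of the ovary, where they lie in the interstitium, around vessels and in the corpus luteum and clear dying granulosa and luteal cells. They depend on signalling through the CSF-1 receptor, take up glycoproteins and spent haemoglobin through lectin and scavenger receptors, and are a main source of complement C1q in many tissues. The transcription factor PU.1 is needed for the myeloid lineage and binds many macrophage promoters at sites with the core GAGGAA.

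The stretches before the transcription start of the members were searched for this core. RefSeq sequences of build GRCr8 were found for 9 of the 10 genes, without Clec10a, and the 250 bases before each start were read on both strands. The core GAGGAA, or TTCCTC on the opposite strand, stood in 7 of the 9 (Mrc1, C1qb, Cd68, Adgre1, Csf1r, Ms4a6a and Ptprc) and in 23.3% of 33469 rat promoters of that length. TGANTCA, the AP-1 motif, stood in 1 of the 9 (Cd68) and in 6.34% of all. In Cd68, the only member with both motifs, their matches share no bases. The motifs were chosen with the values known, and a match is a description of letters, not of binding. The members were named as macrophage genes, so these shares cannot bear on the difference between the diets. A link between the core and that difference was not tested. Shown here, 5′ to 3′ in the direction of transcription with each PU.1 core in capitals, are the genes with the lowest unadjusted p-values, Ms4a6a (chr1:217839574-217839823, minus strand) and Mrc1 (chr17:82157475-82157724, plus strand), and the neighbouring complement genes C1qb (chr5:154407828-154408077, minus strand) and C1qa (chr5:154419934-154420183, minus strand).
Ms4a6a: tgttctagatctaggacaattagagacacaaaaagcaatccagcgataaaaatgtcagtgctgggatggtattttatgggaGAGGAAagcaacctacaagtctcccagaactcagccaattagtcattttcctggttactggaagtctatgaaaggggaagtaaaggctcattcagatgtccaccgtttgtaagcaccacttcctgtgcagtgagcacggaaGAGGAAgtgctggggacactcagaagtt
Mrc1: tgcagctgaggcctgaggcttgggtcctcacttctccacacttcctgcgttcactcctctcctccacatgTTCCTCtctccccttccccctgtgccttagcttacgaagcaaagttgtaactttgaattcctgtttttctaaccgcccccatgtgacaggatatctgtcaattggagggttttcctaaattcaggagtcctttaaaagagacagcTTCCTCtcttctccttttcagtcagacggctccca
C1qb: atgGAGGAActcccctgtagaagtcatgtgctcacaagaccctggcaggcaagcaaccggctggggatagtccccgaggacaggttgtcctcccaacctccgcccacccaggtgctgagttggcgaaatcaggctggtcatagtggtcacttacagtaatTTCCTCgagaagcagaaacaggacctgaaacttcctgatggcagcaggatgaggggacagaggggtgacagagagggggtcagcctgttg
C1qa: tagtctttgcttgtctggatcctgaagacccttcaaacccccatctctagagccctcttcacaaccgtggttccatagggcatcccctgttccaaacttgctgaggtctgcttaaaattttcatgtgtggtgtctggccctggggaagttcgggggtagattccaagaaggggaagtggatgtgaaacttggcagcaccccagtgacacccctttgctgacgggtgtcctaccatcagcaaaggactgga
Ms4a6a has its cores 28 to 23 and 169 to 164 bases before the start, and Mrc1 has them 35 to 30 and 180 to 175 bases before it, in the opposite orientation. C1qb has cores 90 to 85 and 247 to 242 bases before its start, while these letters are not in the window of C1qa.

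All 10 macrophage genes had positive differences between overfed and lean ovaries, of 0.03 to 0.65 on the log2 scale, and none passed the threshold after adjustment over all probe sets. The median over the 10 genes was 0.26, beside 0.01 over all 14217 named genes. Overfed ovaries were higher in 52.2% of named genes. In limma, 0 of the 10 genes had an adjusted p under 0.05, against 0.0% of all probe sets. Unadjusted, 6 of the 10 had p under 0.05, all higher, namely Ms4a6a, Mrc1, Clec10a, C1qa, Ptprc and Csf1r, where 2.67% of named genes were higher and 4.47% lower at the same threshold. The pool values of overfed and lean did not overlap in 7 genes, those 6 and C1qb, all of them higher, against 6.76% of named genes without overlap and higher, and 6.34% without overlap and lower. In probe sets, 9 of the members' 12 did not overlap, against 7.35% of all probe sets in that direction. Because the members were named with earlier results of these data known, these shares describe the members and are no independent evidence. The count of 6 dropped to 2 without overfed pool 3, to 2 without lean pool 2 and to 3 without lean pool 3, and was 7 without overfed pool 2. In these fits 5.09%, 7.3%, 4.87% and 5.79% of all probe sets had an unadjusted p under 0.05, against 6.67% with all pools. Ms4a6a and Mrc1 had an unadjusted p under 0.05 in each of the 15 fits that were run.

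The deposited values are logarithms that are centred, probe set by probe set, on the median of the 6 arrays, so the level of a gene, its signal over background and the order of levels between genes are not known here. For the same reason the presence of macrophages, or of ovarian cell types, could not be checked from levels. The base of the logarithm is not given and was taken as 2. If it is e, each fold given here lies too close to 1, while the p-values stay as they are. In whole ovary RNA, more macrophages and more RNA of these genes per macrophage cannot be told apart. Array medians lay between -0.0094 and 0.0099 and the SD over probe sets between 0.142 and 0.289, the highest in overfed pool 1. The mean of the hybridization controls was 0.496 in lean pool 3 and -0.246 in overfed pool 3, and lay between -0.055 and 0.06 in the other pools, and whether this touches the members was not tested.

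**Figure D1:**
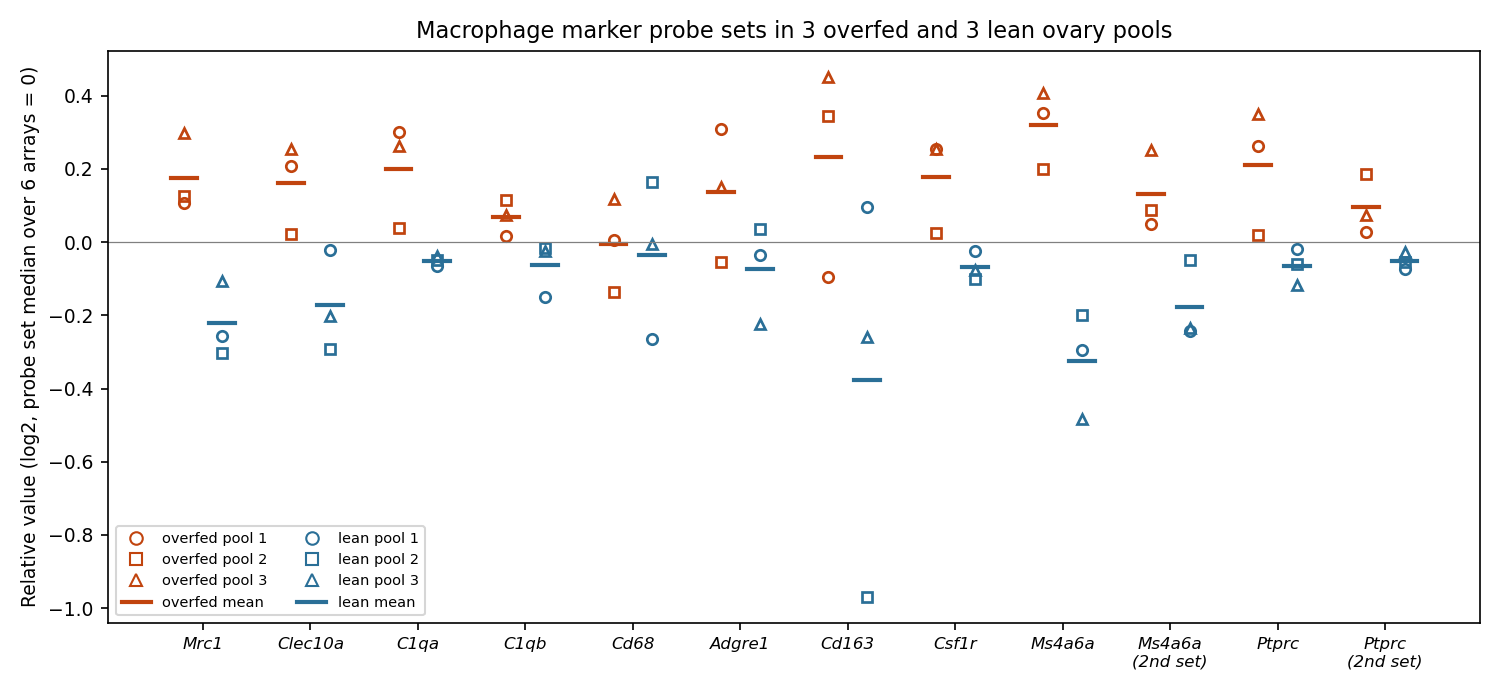
Relative value (log2, the probe set's median over 6 arrays set to 0) of the 12 macrophage marker probe sets in each overfed pool (left of each pair) and lean pool (right), with a bar at the mean of 3 pools. Overfed and lean pools do not overlap in 9 of the 12 probe sets, and Cd163 in lean pool 2 is far below all other points at -0.97.

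Among the endocytic receptors, Mrc1 encodes the mannose receptor, a lectin that removes glycoproteins and is also made by lymphatic endothelium. Its relative values were 0.11, 0.13 and 0.30 in overfed pools 1 to 3, and -0.26, -0.30 and -0.11 in lean pools 1 to 3. Every overfed pool was above every lean pool, with overfed pool 3 the highest. The difference was 0.40 (SE 0.096, 1.32-fold, 95% interval 1.13 to 1.54), with an unadjusted p of 0.00423 and a limma adjusted p of 0.623.

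Clec10a, a lectin for galactose and N-acetylgalactosamine found on macrophages and dendritic cells, had 0.21, 0.02 and 0.25 in the overfed pools and -0.02, -0.29 and -0.20 in the lean pools. The groups did not overlap, but overfed pool 2 and lean pool 1 were close to each other. The difference was 0.33 (SE 0.108, 1.26-fold), with an unadjusted p of 0.0172 and a limma adjusted p of 0.679.

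Cd163, the scavenger receptor for haemoglobin bound to haptoglobin, which the ED2 antibody detects in rats, varied most between pools. It had -0.10, 0.34 and 0.45 in the overfed pools, and 0.10, -0.97 and -0.26 in the lean pools. The groups overlapped, since overfed pool 1 was below lean pool 1, and lean pool 2 alone lay far down. The SD over pools was 0.29 in overfed and 0.54 in lean ovaries. The difference of 0.61 (SE 0.276, 1.53-fold, 95% interval 0.972 to 2.40) had a limma adjusted p of 0.77. Without lean pool 2 it was 0.32.

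Ms4a6a, a membrane protein of the MS4A family expressed in monocytes and macrophages, had the lowest unadjusted p of the members and stood at rank 7 of 14217 named genes by that p. Its first probe set had 0.35, 0.20 and 0.41 in the overfed pools and -0.30, -0.20 and -0.48 in the lean pools. All overfed pools were above and all lean pools below the median, with overfed pool 2 and lean pool 2 nearest to it. The difference was 0.65 (SE 0.106, 1.56-fold, 95% interval 1.32 to 1.86), with an unadjusted p of 0.000479 and a limma adjusted p of 0.623. The other probe set of Ms4a6a had 0.05, 0.09 and 0.25 in the overfed pools and -0.24, -0.05 and -0.24 in the lean pools. It showed the same separation at a smaller size, with a difference of 0.31 (SE 0.098, unadjusted p = 0.0162, limma adjusted p = 0.676).

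Related genes of the MS4A family are alike in sequence, and signal shared between their probe sets was not tested. Ms4a6bl1, a relative of Ms4a6a, had a difference of 0.39 (SE 0.12, limma adjusted p = 0.666) without overlap in one probe set. Its other probe set was at 0.20 (SE 0.123, limma adjusted p = 0.833), with overlap.

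C1qa and C1qb encode chains of C1q, the recognition molecule of the classical complement pathway, which joins the A, B and C chains. C1qb, C1qc and C1qa follow each other on chromosome 5 in the RefSeq annotation of GRCr8. C1qa had 0.30, 0.04 and 0.26 in the overfed pools and -0.06, -0.05 and -0.04 in the lean pools. The lean pools were nearly equal, and overfed pool 2 was close to them while overfed pools 1 and 3 stood above. The difference was 0.25 (SE 0.094, 1.19-fold, unadjusted p = 0.0322, limma adjusted p = 0.719).

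C1qb had 0.017, 0.12 and 0.08 in the overfed pools and -0.15, -0.017 and -0.023 in the lean pools. The groups did not overlap, though the lowest overfed value, here in pool 1, was near the highest lean value. Its difference of 0.13 (SE 0.082, 95% interval 0.959 to 1.25-fold) had a limma adjusted p of 0.835. C1qc, the C chain and not a member, had 0.13, -0.08 and 0.11 in the overfed pools and -0.17, -0.19 and 0.08 in the lean pools. Its groups overlapped, and its difference was 0.15 (SE 0.108, limma adjusted p = 0.853), with 0.23 without lean pool 3 and 0.098 without lean pool 2. The overfed pool that was highest differed between these chains, being pool 1 for C1qa and C1qc and pool 2 for C1qb.

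Csf1r encodes the receptor for the growth factors CSF-1 and IL-34, on which macrophage survival depends. It had 0.25, 0.02 and 0.25 in the overfed pools and -0.02, -0.10 and -0.08 in the lean pools. The groups did not overlap, and overfed pool 2 was again the lowest overfed pool. The difference was 0.24 (SE 0.094, 1.18-fold, unadjusted p = 0.0344, limma adjusted p = 0.719).

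The ligands of Csf1r overlapped between the groups. Csf1 had 0.007, 0.07 and -0.17 in the overfed pools and -0.007, 0.08 and -0.07 in the lean pools, a difference of -0.04 (SE 0.096, limma adjusted p = 0.969). Its sign depended on single pools, with 0.034 without overfed pool 3 and 0.004 without lean pool 2. Il34 was at 0.13 (SE 0.12, limma adjusted p = 0.886), and at 0.008 without overfed pool 3, where it had 0.36. Of 10 measured growth factor, receptor and transcription factor genes of the lineage, 5 were higher and 5 lower, and 0 had an unadjusted p under 0.05. The lowest p-values belonged to the C/EBP factors Cebpa at -0.29 (limma adjusted p = 0.751) and Cebpb at -0.27 (limma adjusted p = 0.819), and to the interferon regulatory factor Irf8 at -0.13 (limma adjusted p = 0.853). Without lean pool 2, Cebpb was at -0.17 and Irf8 at -0.081. Spi1, the gene of PU.1, was not analysed here.

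Adgre1 encodes an adhesion G protein-coupled receptor that is widely used as a macrophage surface marker in mice. It had 0.31, -0.05 and 0.15 in the overfed pools and -0.03, 0.03 and -0.22 in the lean pools. Overfed pool 2 lay below both lean pools 1 and 2, so the groups overlapped. The difference was 0.21 (SE 0.122, 95% interval 0.949 to 1.41-fold, limma adjusted p = 0.829). Leaving out overfed pool 1 gave 0.12, and leaving out lean pool 3 as well gave 0.05.

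Cd68, a glycoprotein of macrophage lysosomes and endosomes, had 0.006, -0.14 and 0.12 in the overfed pools and -0.27, 0.16 and -0.006 in the lean pools. The highest and the lowest values were both in lean pools. The difference of 0.03 (SE 0.13, limma adjusted p = 0.979) had a 95% interval of 0.826 to 1.27-fold, so a difference of up to that size in either direction is compatible with these pools. Its sign turned in fits without lean pool 1 (-0.082) or without overfed pool 3 (-0.029).

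Ptprc encodes CD45, a phosphatase on all nucleated blood cells, and so marks leukocytes in general. Its first probe set had 0.26, 0.02 and 0.35 in the overfed pools and -0.02, -0.06 and -0.12 in the lean pools. The groups did not overlap, and overfed pool 2 was close to lean pool 1. The difference was 0.28 (SE 0.105, 1.21-fold, unadjusted p = 0.0342, limma adjusted p = 0.719). The other probe set had 0.03, 0.19 and 0.07 in the overfed pools and -0.07, -0.05 and -0.03 in the lean pools. It was without overlap too, but with overfed pool 2 as the highest, and its difference was 0.15 (SE 0.081, limma adjusted p = 0.827).

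**Figure D2:**
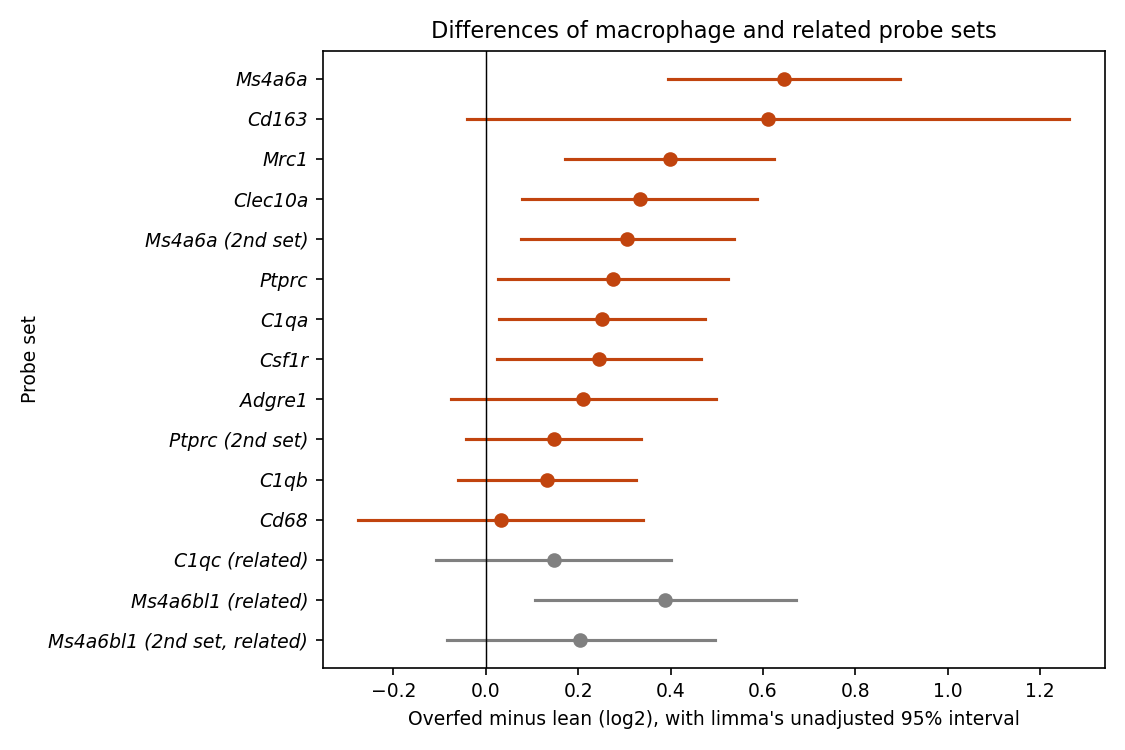
Difference of overfed minus lean (log2) for the 12 macrophage marker probe sets and for the related C1qc and Ms4a6bl1 (grey), with limma's unadjusted 95% interval as a line. All 12 points lie above 0, from 0.03 for Cd68 to 0.65 for Ms4a6a, and 5 of the 12 intervals include 0.

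Over the 10 members together, overfed pool 3 had the highest mean and overfed pool 2 the lowest of the overfed pools. The means were 0.17, 0.07 and 0.26 in overfed pools 1 to 3 and -0.10, -0.18 and -0.15 in lean pools 1 to 3. The order of the lean pools rests on Cd163, since by the median of the 10 genes, at -0.05, -0.081 and -0.112, lean pool 3 and not lean pool 2 was the lowest. Of the 10 genes, 6 had their highest value in overfed pool 3, and none had its lowest value in an overfed pool. In lean pool 3 all 10 genes were below their median, and in overfed pool 3 all 10 were above it. Cd163 and Cd68 departed most from the common pattern, with a mean absolute difference from the members' mean of 0.304 and 0.184, and Ptprc and Csf1r followed it most closely at 0.046 and 0.047.

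Outside the members, the 6 of 14207 named genes nearest to the members' mean over the 6 pools were Pds5b and Cenpk, which act in chromosome cohesion and at the kinetochore, the microtubule-severing gene Katna1, the splicing factor Srsf11, the protocadherin Pcdh18 and cyclin Ccnb2. Their mean absolute differences were 0.034 to 0.042. The pools shared by all genes are only 6, and a gene near to the mean in them need not be expressed in macrophages.

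The other macrophage markers did not follow the members as a group. Of 27 measured genes, 19 were higher and 8 lower, with a median of 0.05. Only 1 had an unadjusted p under 0.05 in limma, where 2.67% of named genes were higher at that threshold. That gene was the lipid-sensing receptor Trem2, at 0.18, 0.04 and 0.12 in the overfed pools and -0.16, -0.04 and -0.16 in the lean pools. It did not overlap between the groups and differed by 0.23 (SE 0.084, limma adjusted p = 0.708). Next were the hyaluronan receptor Lyve1, at 0.58 (SE 0.252, limma adjusted p = 0.751), and the coagulation factor subunit F13a1, at 0.44 (SE 0.213, limma adjusted p = 0.801), both with overlap. In lean pool 2 Lyve1 was at -0.95, F13a1 at -0.71 and Cd163 at -0.97, the lowest value of each, and without that pool Lyve1 was at 0.31 and F13a1 at 0.23. Lyve1 also marks lymphatic endothelium. The lymphatic genes Pdpn, Prox1 and Flt4 had -0.33, 0.06 and 0.24 in lean pool 2. They differed by 0.16, 0.10 and -0.17 between the groups (limma adjusted p = 0.884, 0.892 and 0.848), and Pdpn by 0.055 without lean pool 2. The part of lymphatic tissue in the values of lean pool 2 was not tested. Aif1, the gene of the macrophage protein Iba1, was at -0.22 (SE 0.117, limma adjusted p = 0.821), against the direction of the members, and at -0.12 without lean pool 3.

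Genes of monocyte recruitment had a median of 0.23, close to that of the members, with 8 of 9 higher. The monocyte chemokine Ccl2 had 0.27, 0.27 and 0.21 in the overfed pools and -0.90, -0.21 and -0.54 in the lean pools. The overfed pools were nearly equal, while the lean pools were spread below them. The difference was 0.80 (SE 0.166, 1.74-fold, unadjusted p = 0.00189, limma adjusted p = 0.623). Its receptor Ccr2, which marks incoming monocytes, had 0.04, 0.15 and 0.27 in the overfed pools and -0.07, -0.04 and -0.14 in the lean pools. These did not overlap either, with a difference of 0.23 (SE 0.089, unadjusted p = 0.0345, limma adjusted p = 0.719). The membrane chemokine Cx3cl1 was at -0.34 (SE 0.096, unadjusted p = 0.01, limma adjusted p = 0.645), lower in every overfed pool than in any lean pool.

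Next were lists of genes commonly used to describe macrophage activation. Most of the alternative activation list was lower and most of the classical activation list higher in the overfed ovaries. The members Mrc1, Clec10a and Cd163 are also used to describe alternative activation but were not on that list. They were higher, at 0.40, 0.33 and 0.61. In whole ovary RNA, the cells that express the listed genes are not known. Of 13 alternative activation genes, 4 were higher and 9 lower, with a median of -0.06, and 0 had an unadjusted p under 0.05. The transglutaminase Tgm2 (-0.36), the chemokine Ccl17 (-0.15) and the factor Klf4 (-0.14) had the lowest p-values, with limma adjusted p-values of 0.789, 0.841 and 0.887. Without lean pool 3 Tgm2 was at -0.21 and Klf4 at -0.042, without overfed pool 2 Klf4 was at -0.035, and without lean pool 2 Ccl17 was at -0.091. Of 13 classical activation genes, 10 were higher, with a median of 0.12, and 5 were higher without overlap, against 6.76% of named genes. Another 1, Nos2, was lower without overlap, at -0.095 (limma adjusted p = 0.865), against 6.34% of named genes. The mean of the classical activation list was 0.16, 0.05 and 0.02 in overfed pools 1 to 3 and -0.07, -0.11 and -0.05 in lean pools 1 to 3. Every overfed pool was above every lean pool, but these means rest in part on single genes. Il12a had 1.70 in overfed pool 1. The interferon-induced chemokine Cxcl10 had 0.23, 0.77 and 0.25 in the overfed pools and -0.71, -0.23 and -0.74 in the lean pools. Whether the means separate without Cxcl10 was not tested. Cxcl10, at 0.97 (SE 0.195, limma adjusted p = 0.623), was the only gene of this list with an unadjusted p under 0.05. The cytokine Il6 (0.20) and the signalling inhibitor Socs3 (0.14) followed, with limma adjusted p-values of 0.829 and 0.833, and Il6 was at 0.098 without overfed pool 2. Of 15 genes for the uptake of dying cells, 8 were higher and 7 lower. The bridging protein Mfge8 was at -0.42 and the receptor Tyro3 at -0.46, while the bridging protein Pros1 was at 0.23, with limma adjusted p-values of 0.693, 0.714 and 0.719.

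**Figure D3:**
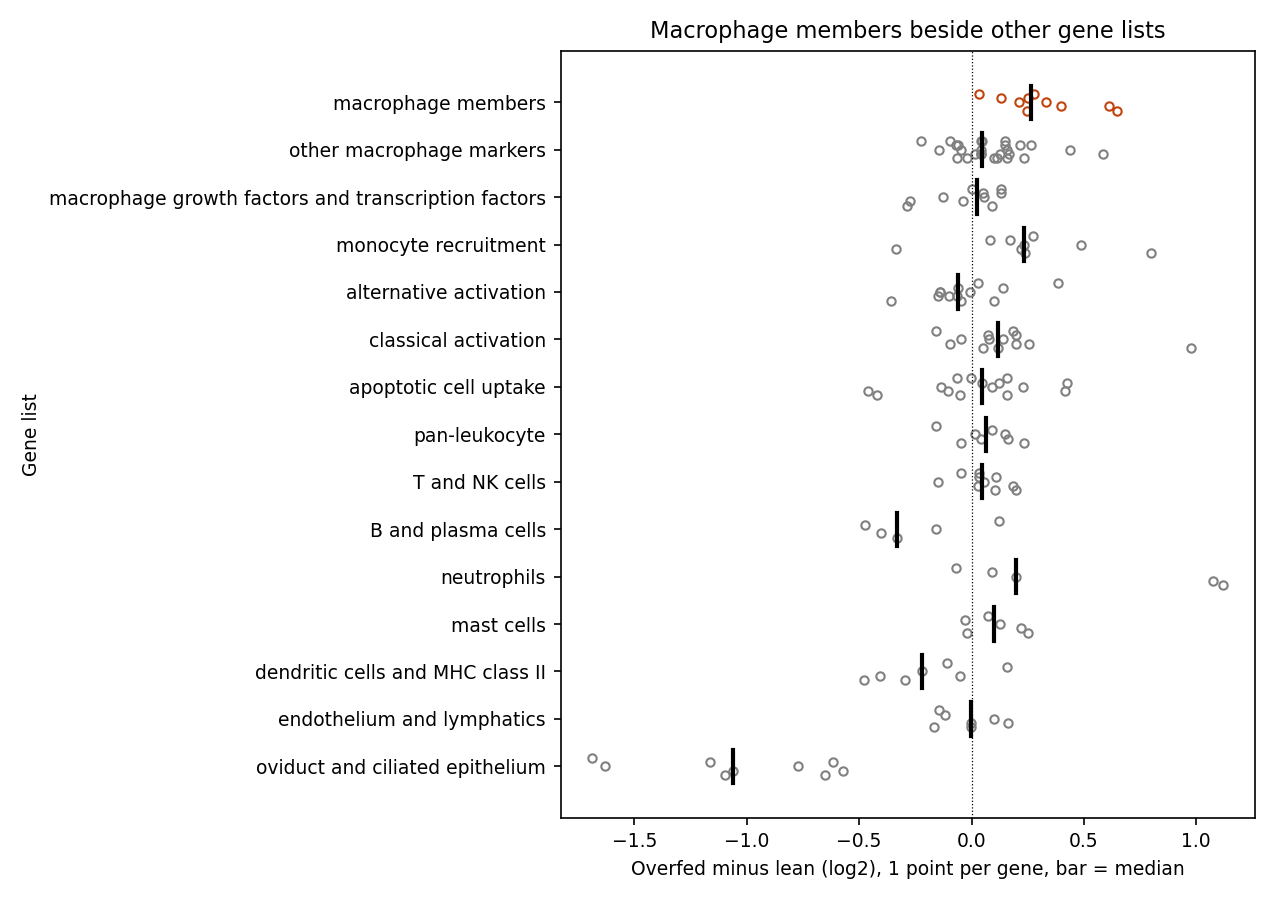
Difference of overfed minus lean (log2) of each measured gene (1 circle per gene) in the macrophage members (orange) and 14 other gene lists (grey), with the median of each list as a black bar. The members' median of 0.26 is near that of monocyte recruitment (0.23) and above that of the other macrophage markers (0.05), and the oviduct and ciliated epithelium genes lie far below at -1.06.

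Markers of other blood cells differed in direction from list to list. Of 8 pan-leukocyte genes 6 were higher, with a median of 0.07, led by the integrin Itgb2 at 0.23 (limma adjusted p = 0.755), Cytip at 0.16 (0.837) and Cd48 at 0.15 (0.843). T and NK cell genes had 8 of 10 higher and a median of 0.05, with Nkg7 (0.20), Cd3d (0.19) and Cd8a (-0.15) at limma adjusted p-values of 0.822, 0.829 and 0.851. Of the 5 genes of B and plasma cells 4 were lower, with a median of -0.33, with Ms4a1 at -0.33, Mzb1 at -0.40 and Pou2af1 at -0.16 (limma adjusted p = 0.623, 0.703 and 0.829). The groups did not overlap in these 3 genes, where 6.34% of named genes were lower without overlap. Genes of dendritic cells and MHC class II had 6 of 7 lower and a median of -0.22. The class II regulator Ciita was at -0.30, RT1-Ba at -0.41 and Cd74 at -0.22 (limma adjusted p = 0.644, 0.705 and 0.826). The dendritic cell genes Flt3 and Clec9a were at -0.05 and 0.16 (limma adjusted p = 0.959 and 0.884), and Clec9a was the only higher gene of the list. Neutrophil genes had 4 of 5 higher, with S100a9 at 1.12 and S100a8 at 1.08 (limma adjusted p = 0.715 and 0.767), both overlapping, and Csf3r at 0.20 (0.841). Without overfed pool 2, S100a9 was at 0.77 and S100a8 at 0.62. Mast cell genes had 4 of 6 higher, with Cpa3 at 0.25, Tpsab1 at 0.22 and Fcer1a at 0.12 (limma adjusted p = 0.829, 0.829 and 0.849), and the 7 endothelial genes had a median of -0.003, with Flt4 at -0.17 (0.848). Several of these values depended on single pools. Without lean pool 1, Cpa3 was at 0.14, Tpsab1 at 0.11, Csf3r at 0.09 and Nkg7 at 0.13, and without lean pool 2, Fcer1a was at 0.06, Cd8a at -0.093 and Flt4 at -0.088. Without overfed pool 2, Cd3d was at 0.095, Cd74 at -0.13 and Flt4 at -0.087, and without overfed pool 3, Cytip was at 0.094 and Cd48 at 0.096.

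Genes of oviduct and ciliated epithelium moved with the groups in the opposite direction to the macrophage markers. All 9 measured genes were lower in the overfed ovaries. In limma, 8 had an unadjusted p under 0.05, where 4.47% of named genes were lower at that threshold. Among the 8 were Ccdc40 at -0.65, the ciliary regulator Foxj1 at -1.06 and Tekt2 at -1.63, each with a limma adjusted p of 0.623. The mean of the list was -0.84, -0.21 and -0.68 in overfed pools 1 to 3 and 0.49, 0.12 and 0.74 in lean pools 1 to 3. Overfed pool 2, with the lowest members' mean of the overfed pools, had the highest value of this list among them. Overfed pool 3 had the highest members' mean, but overfed pool 1 had the lowest value of this list. Among the lean pools, lean pool 2 had both the lowest members' mean, which rests on Cd163, and the lowest value of this list. The part of this tissue in the macrophage differences was not tested.

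**Figure D4:**
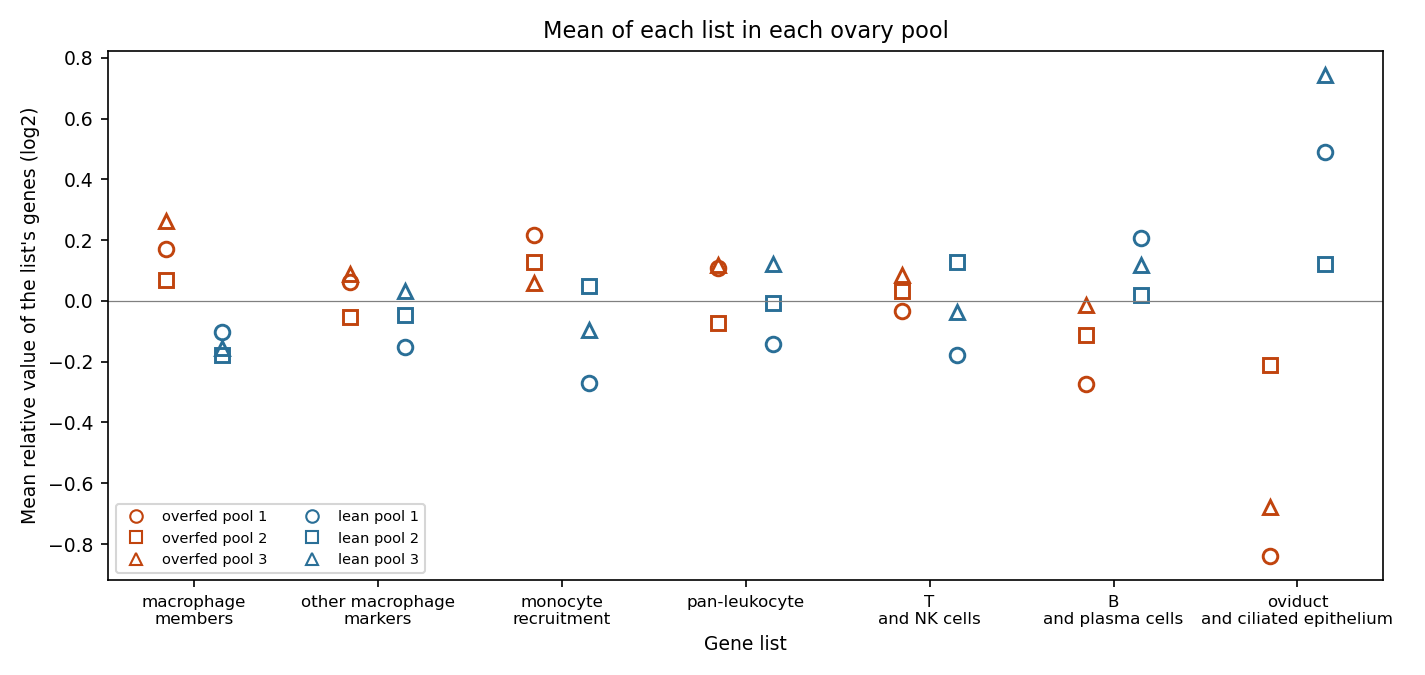
Mean relative value (log2) over the genes of 7 lists in each pool, overfed pools left of lean pools in each pair, with pools 1, 2 and 3 as circle, square and triangle. The overfed pools lie above all lean pools in the macrophage members and, narrowly, in monocyte recruitment (0.059 against 0.05 for the nearest pools). They lie below all lean pools in the oviduct genes and, narrowly, in the B and plasma cell genes (-0.015 against 0.021). The other macrophage markers overlap.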

How the data were processed

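The authors deposited 1 table of log values for 31099 probe sets on 6 arrays. Per the submitters' processing notes, GCOS was used, and no version, probe set summary, filter or logarithm base is given in the sources used here. These deposited logarithms are taken as log2 and were centred before deposit, since the median of 31099 probe sets over the 6 arrays was 0 within 1e-06. No scanner files were used here.

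After 57 array controls were left out, 31042 probe sets were fitted in limma 3.58.1 (R 4.3.3) with lmFit and eBayes, overfed against lean, no covariate, two-sided, with Benjamini-Hochberg adjustment over all of them and a threshold of 0.05. Of these, 20826 had 1 gene name, 436 several and 9780 none in the platform annotation. Symbols were set against RefSeq by Entrez identifier, and 0 changed. A gene with several probe sets is represented in counts by 1, chosen by RefSeq mRNA accession, then unique type, then lowest identifier. Precision is limited by having 3 pools per group.

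The members and the 14 other lists (163 genes, 141 measured) were chosen with earlier results of these data known. The text names all members, the 3 genes of each list with the lowest unadjusted p, C1qc, Csf1, Il34, Spi1, Ccl2, and the 6 genes nearest to the members' mean. Ms4a6bl1, Aif1, Flt3, Clec9a, Nos2 and Il12a were named outside this rule, with their values known. Of the genes and motifs looked at, 1 of each is not reported here. Alternatives were quantile normalization, array median centring, array weights, a robust prior, a block for the pool number, fits without single pools, a filter on SD and the mean of a gene's probe sets. The fit was tested on simulated data. Plots were made in Python 3.11.15 with matplotlib 3.10.9.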

Additional observations from a re-analysis of the deposited data

How the results depend on the processing

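In 13 alternative fits of single probe sets, 152 of 154 differences of member probe sets kept their direction, and all stayed above the adjusted threshold of 0.05. The exceptions were both Cd68, at -0.082 without lean pool 1 and -0.029 without overfed pool 3, in a range of -0.082 to 0.132 over the fits without 1 pool. The median over the 10 genes was 0.214 to 0.352 with any 1 pool left out, and 0.215 with array weights and with lean pool 3 and overfed pool 1 both left out. The count of members at an unadjusted p under 0.05, which was 6, ran from 2 to 7 with any 1 pool left out. In those fits 4.87% to 7.3% of all probe sets had such a p. The count was 3 with array weights (7.16% of all probe sets) and 2 with lean pool 3 and overfed pool 1 both left out (5.46%). When the probe sets with the smaller SD were left out, it was 3 of the 9 members kept (6.08% of the probe sets kept). With the pool number as a block it was 4 (5.66% of all probe sets), and the labels give no batch. The deviations of overfed and lean pools 1, 2 and 3 from their group means correlated at 0.1, 0.17 and -0.28 over probe sets. Between pools of unlike number these correlations ran from -0.42 to 0.40. With 3 pools per group, they cannot show whether pools of the same number were handled together. The filter on SD kept 15521 probe sets, of which 62 passed the adjusted threshold, 0 of them members, against 0 in the fit of all probe sets. Its SD was taken over all pools, so it includes the difference between the groups. The cause of these shifts was not tested. A variance trend over the mean was not run, because centred values carry no level. Signal over background is unknown, which limits every member alike.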
